A study of Homo sapiens with 10 samples.

Results

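Long intergenic RNAs with a numbered LINC symbol were followed in VCaP, an established human prostate cancer cell line, after depletion of one or the other of a pair of chromatin remodelers. The 130 members were chosen by their symbol and by at least 10 counts in each of the 2 control libraries, so the control counts chose them. They are 130 of the 2134 genes with such a symbol and of 59386 counted genes. At the threshold, 6 members had a lower control count of 10, while 5 genes had a lower control count of 9 and, with at most 16 counts in the other control, were left outside. All 130 members entered the test of 16899 genes. Of the 2004 other LINC-numbered genes, 1200 had 0 counts in every library, 733 had counts but were too low to test and 71 were tested.

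Polyadenylated, strand-specific RNA-seq was read as counts per gene in 10 libraries, 2 for each of 5 conditions, taken 72 h after transfection. The conditions were a control siRNA labelled siNC, SMARCA4 siRNA SiA, SMARCA4 siRNA SiB, SMARCA1 siRNA SiA and SMARCA1 siRNA SiC, the targeting siRNAs at 30 pmol. All groups were the same parental line with no added agent named, and the labels do not say whether the 2 libraries of an siRNA came from separate cultures, so the tests measure the spread between these libraries, which may be technical. The comparison asks which intergenic RNAs depend on one remodeler and not on the other.

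SMARCA4 (BRG1) is an ATPase of the SWI/SNF complexes, which slide or evict nucleosomes at enhancers and promoters. SMARCA1 (SNF2L) is an ATPase of the ISWI family, whose complexes mainly reposition and space nucleosomes. Long intergenic RNAs are transcribed by RNA polymerase II away from coding genes, are usually spliced and low in abundance, and are often restricted to few tissues.

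Totals ran from 23898545 to 34667965 counts per library, so that 3 counts, the floor used here, equaled 0.0899 to 0.126 CPM (counts per 1000000 counts of the library, after scaling). SMARCA4 ranged from 242 to 268 CPM in control, 13.3 to 25.2 in SMARCA4 knockdown and 228 to 250 in SMARCA1 knockdown. SMARCA1 ranged from 31.5 to 32.3 CPM in control, 1.75 to 3.40 in SMARCA1 knockdown and 57.4 to 83.8 in SMARCA4 knockdown. Of the prostate markers, KLK3, KLK2, TMPRSS2, HOXB13, FOXA1, KRT8, KRT18, EPCAM and ERG summed to 8150 to 8350 CPM in control and 7180 to 9030 in the knockdown libraries, and endothelial markers to 1.59 to 3.16 CPM over all libraries. Fibroblast markers summed to 23.7 to 27.4 CPM in control, 18.2 to 35.0 in SMARCA4 knockdown and 37.0 to 55.2 in SMARCA1 knockdown, and immune markers to 2.34, 2.35 to 16.0 and 9.10 to 23.7 CPM; their part in the differences between the knockdowns was not tested. The 2 libraries of each condition differed by more than sampling noise, most of all for SMARCA1 SiA (chi-square per gene 60.6, against 3.80 for SMARCA1 SiC). All 33 tested interferon response genes were called higher than control in both knockdowns, with a summed level of 404 to 409 CPM in control, 17400 to 46900 in SMARCA4 knockdown and 25500 to 49400 in SMARCA1 knockdown. This rise accompanies every comparison with control below, and its part in them was not tested. Between the knockdowns, 3 of the 33 were called higher and 6 lower in SMARCA4 knockdown, and their part in that comparison was not tested either.

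The members were mostly scarce. Their median control level was 1.37 CPM, with a range from 0.437 to 154, and 25 members had fewer than 20 counts in both controls while 32 had 100 or more in both. LINC00665, LINC00662 and LINC01128 together held 43.3% of the summed member CPM in control, and the top 10 held 65.5%. Per kilobase of exon the median was 0.42 CPM, and the highest levels in control were 18.6 for LINC02387, 12.6 for LINC00665 and 9.31 for LINC02593. LINC00992 at 8.84, LINC00674 at 7.98 and LINC00294 at 7.75 CPM per kb followed, whereas LINC00662, whose exons span 33198 bases, had only 3.66. The summed member level was 903 and 900.0 CPM in the controls, 775.1, 794.4, 824.8 and 811.6 in the SMARCA4 libraries (SiA, then SiB), and 713, 692, 741 and 744 in the SMARCA1 libraries (SiA, then SiC). The sums averaged 801.5 ± 21.5 CPM (SD, n = 4) in SMARCA4 knockdown and 722.5 ± 24.8 (SD, n = 4) in SMARCA1 knockdown, without overlap. Abundant members carry these sums. LINC00662 averaged 90.62 CPM in SMARCA4 knockdown and 24.51 in SMARCA1 knockdown, while LINC00665 went the other way, at 71.53 and 131.1. The gap between the sums is therefore not read as a shift of the whole set. In bulk RNA, fewer cells that transcribe a gene and less RNA per cell cannot be told apart.

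Against control, which also chose the members, the values are given as a description. With the same limit of an adjusted p below 0.05, 30 members were called lower and 12 higher in SMARCA4 knockdown, where 22.3% and 22.8% of all tested genes were called lower and higher. SMARCA1 knockdown had 42 members lower and 12 higher, where the shares of all tested genes were 23.0% and 23.8%. Since genes near the control limit enter the set when their control counts happen to be high, nothing is read from these counts. The median log2 difference of the members was -0.27 in SMARCA4 knockdown and -0.44 in SMARCA1 knockdown, against 0.002 and -0.004 over all tested genes. The counts rested on both controls: without control replicate 1 they were 18 and 25, and without control replicate 2 they were 22 and 24.

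**Figure D1:**
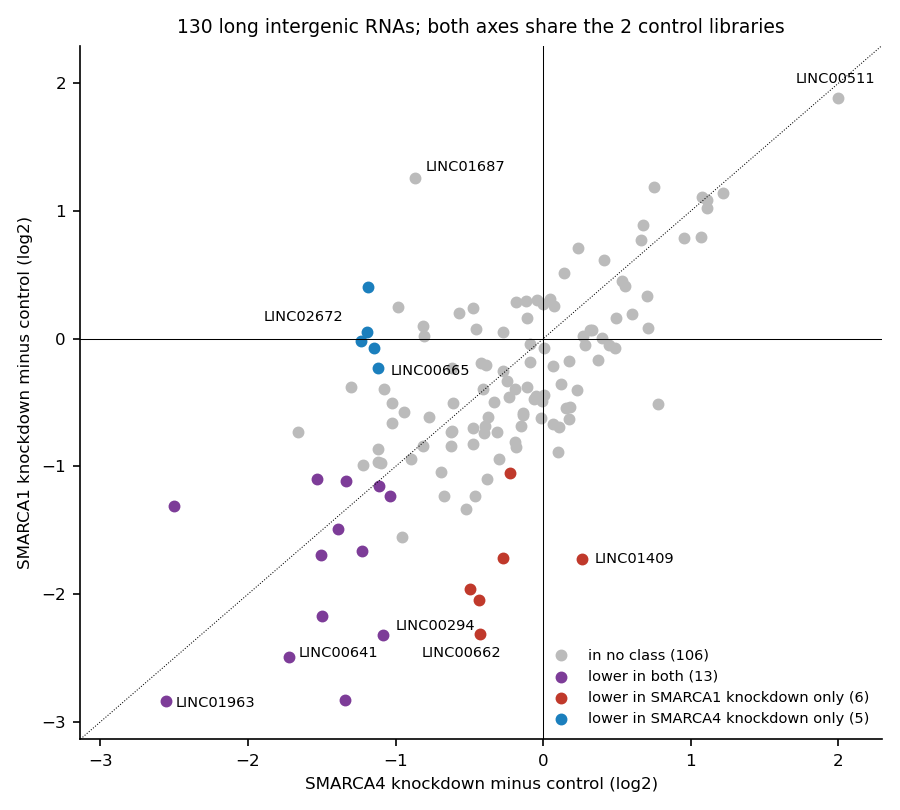
Each of the 130 long intergenic RNAs is a point, with its log2 difference from control in SMARCA4 knockdown (x axis) and in SMARCA1 knockdown (y axis); both axes use the same 2 control libraries, so points are drawn toward the dotted diagonal, where the values are equal. Colors mark the patterns defined in the text: 6 red points lower in SMARCA1 knockdown only, 5 blue in SMARCA4 knockdown only and 13 purple in both. LINC00662 and LINC01409 are among the red points, and LINC00662 was also called lower than control in SMARCA4 knockdown.

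Setting the 4 SMARCA4 libraries against the 4 SMARCA1 libraries compares values that did not choose the members, although the controls still enter the filter, the scaling and the spread of the fit; with knockdown libraries only, 30 members were called. In edgeR's quasi-likelihood test with Benjamini-Hochberg adjustment over all tested genes, 36 members (27.7%) differed between the knockdowns, where 35.4% of all tested genes did. Of the 36, 24 (18.5%) were higher in SMARCA4 knockdown, against 16.3% of all genes, and 12 (9.23%) were lower, against 19.1%. LINC01409, singled out beforehand for its low level in SMARCA1 knockdown, is counted among the 36 and the 24. The median log2 difference was 0.18 for the members and -0.01 for all tested genes. In CPM, the SMARCA4 and SMARCA1 libraries did not overlap for 30 members (23.1%), against 26.7% of all genes. The share called followed the level: it was 10 of 55 members below a mean of 1 CPM (18.2%, against 18.4% of all genes in that range), 10 of 47 from 1 to 5 CPM (21.3%, against 32.8%) and 16 of 28 at 5 CPM or more (57.1%, against 41.2%). Protein-coding genes were called in 38.7% of cases and other annotated long noncoding RNAs in 25.0% (195 of 781). The median standard error was 0.23 on the log2 scale for the members and 0.13 for all genes. The count fell to 22 without SMARCA4 SiA replicate 2 or SMARCA4 SiB replicate 2, and to 21 without either SMARCA1 SiC library. Against SMARCA4 SiA alone or SiB alone it was 27 each, and for the SMARCA4 mean against SMARCA1 SiA or SiC alone it was 28 and 24.

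**Figure D2:**
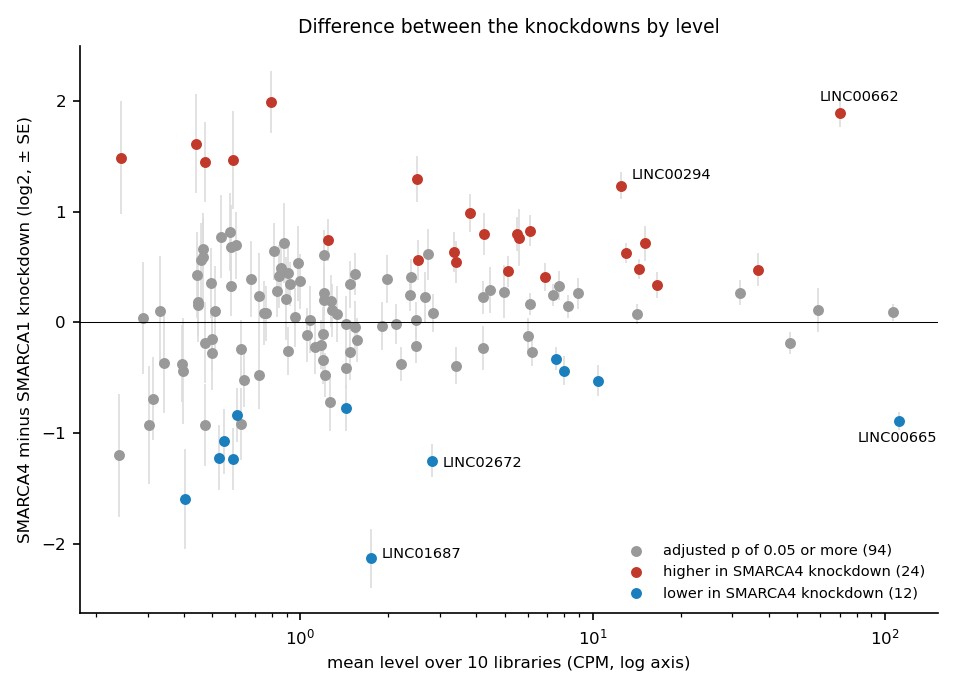
Mean level over the 10 libraries (x axis, CPM, log scale) against the log2 difference between SMARCA4 and SMARCA1 knockdown (y axis, bars are ± 1 SE) for the 130 members. The 24 red points were called higher and the 12 blue points lower in SMARCA4 knockdown; LINC00662 and LINC00665, both at the right, lie on opposite sides of 0, and bars are widest at the left, where counts are few.

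The first pattern was a low level in SMARCA1 knockdown with a level nearer to control in SMARCA4 knockdown. It was set as a log2 difference from control of -1 or less in SMARCA1 knockdown, a log2 above -0.5 in SMARCA4 knockdown and a called difference between the knockdowns. It held 6 members (4.62%), namely LINC00662, LINC01409, LINC01089, LINC01814, LINC01801 and LINC00930, where 1.90% of all tested genes met it. All 6 were called lower than control in SMARCA1 knockdown and 1 of them, LINC00662, also in SMARCA4 knockdown. As its limits use the control counts and LINC01409 was singled out beforehand for this pattern, the share is a description. It held 2 members without control replicate 2 and 3 without SMARCA1 SiC replicate 2.

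LINC00662 (chromosome 19, 27681072 to 27794005 on GRCh38, minus strand), reported to be raised in several tumor types, was the most abundant of them. Its level was 129.6 and 114 CPM in the controls. It was 72.2 and 104 CPM with SMARCA4 SiA and 86.1 and 100.5 with SMARCA4 SiB. With SMARCA1 SiA it was 25.7 and 24.8 CPM, and with SMARCA1 SiC 23.6 and 23.9. All 4 SMARCA1 libraries lay within a narrow band far below every other library, at 20.2% of the control mean, while the SMARCA4 mean was at 74.5%. The level in SMARCA4 knockdown was 3.70 times that in SMARCA1 knockdown (log2 difference 1.89 ± 0.12 SE, edgeR adjusted p = 2.6e-05). The gene lies 1419146 bases from its nearest coding start, UQCRFS1, which had a log2 difference of -0.38, so the pair moved in opposite directions.

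LINC01409 (chromosome 1, 778747 to 810065, plus strand) was singled out for this pattern when the members were chosen, and its values are therefore given without a test. Its counts were low, with 17 and 34 in the controls, 30 and 41 with SMARCA4 SiA, 35 and 39 with SMARCA4 SiB, 7 and 8 with SMARCA1 SiA and 9 and 11 with SMARCA1 SiC. In CPM these were 0.711 and 1.26 in control, 1.05, 1.29, 1.08 and 1.37 in SMARCA4 knockdown, and 0.253, 0.325, 0.288 and 0.330 in SMARCA1 knockdown. The 4 SMARCA1 libraries were all below the lowest of the others, and the 4 SMARCA4 libraries fell within or just above the span of the controls, which themselves differed. The mean was at 30.3% of control in SMARCA1 knockdown and 121% in SMARCA4 knockdown, a log2 difference between the knockdowns of 1.99 ± 0.28 (SE). Of the next members along the chromosome, LINC01128, starting at 825138, had a log2 difference of 0.09 ± 0.08 (SE), and LINC00115, on the opposite strand at 826206, one of 0.16 ± 0.28 (SE).

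The start regions of both genes are printed because both RNAs were lowest in the same libraries. The 300 bases cover 250 before and 50 after the RefSeq start (GRCh38.p14), which lies 65 bases (LINC00662) and 51 bases (LINC01409) from the gene start used for counting. Capitals mark any match, on either strand, to CACGTG (E-box), CCGGAAGT (an ETS-type site), TGACGTCA (the palindromic cAMP response element), GAAANNGAA (part of an interferon-stimulated response element) and TATAAA (a core promoter element), none of which is contained in another. The first lies on chromosome 19 from 27793891 to 27794190 (minus strand) and the second on chromosome 1 from 778548 to 778847 (plus strand).
LINC00662: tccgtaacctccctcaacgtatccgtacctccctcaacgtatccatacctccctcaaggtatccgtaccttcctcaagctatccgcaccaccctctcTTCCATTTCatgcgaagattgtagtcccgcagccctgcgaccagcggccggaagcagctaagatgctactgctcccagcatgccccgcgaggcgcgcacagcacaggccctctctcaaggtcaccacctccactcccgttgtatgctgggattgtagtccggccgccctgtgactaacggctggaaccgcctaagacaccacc
LINC01409: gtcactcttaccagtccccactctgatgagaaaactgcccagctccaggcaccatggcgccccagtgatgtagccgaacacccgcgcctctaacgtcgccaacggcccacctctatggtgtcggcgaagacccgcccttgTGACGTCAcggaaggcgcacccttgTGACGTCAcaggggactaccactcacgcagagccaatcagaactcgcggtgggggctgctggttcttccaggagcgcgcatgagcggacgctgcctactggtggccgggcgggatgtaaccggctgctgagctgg
The LINC00662 window is 59.3% GC with 20 CpG and a single GAAANNGAA match, which starts 153 bases before the start. The LINC01409 window is 63.7% GC with 24 CpG and holds TGACGTCA at both -110 and -85, 25 bases apart. TGACGTCA occurred in 1.98% of the 27305 windows of all genes and in 3 of the 92 members with a window, and 18 windows in all (0.0659%) held it 2 or more times, LINC01409 being the single member among them. CACGTG was found in 7.43% of all windows and 8.70% of member windows, CCGGAAGT in 4.44% and 2.17%, GAAANNGAA in 8.29% and 7.61%, and TATAAA in 12% and 16.3%. A match is a run of letters and was not tested as a binding site.

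The other members of this pattern were scarcer. LINC01089 (chromosome 12, 121795267 to 121803906, minus strand) was at 8.11 and 8.51 CPM in control, 6.74, 7.58, 6.24 and 7.93 in SMARCA4 knockdown and 4.56, 3.21, 4.03 and 4.23 in SMARCA1 knockdown. No SMARCA1 library reached the lowest SMARCA4 library, and the difference was 0.83 ± 0.14 (log2, SE, edgeR adjusted p = 0.0018). However, 41.7% of its exon bases are shared with another gene on the same strand and 48.7% with one on the opposite strand, and its start lies 103 bases head to head from SETD1B, so its counts are uncertain. LINC01814 (0.722 CPM in control), LINC01801 (0.989) and LINC00930 (0.713) were at 30.7%, 27.6% and 27.7% of control in SMARCA1 knockdown and at 82.1%, 70.9% and 76.5% in SMARCA4 knockdown. Their differences between the knockdowns were 1.45 ± 0.36, 1.47 ± 0.44 and 1.61 ± 0.45 (log2, SE), with edgeR adjusted p of 0.012, 0.027 and 0.020. Counts in the SMARCA1 libraries (SiA, then SiC) were 6, 8, 7 and 4 for LINC01814 and 5, 14, 7 and 4 for LINC01801. For LINC00930 they were 1, 4, 11 and 8, the first of them under the floor of 3 counts. For LINC01801 and LINC00930 a single SMARCA1 library overlapped with the SMARCA4 libraries, and both calls were lost without SMARCA4 SiB replicate 2, SMARCA1 SiA replicate 1 or SMARCA1 SiC replicate 2, among others. The call of LINC01814 was lost without SMARCA1 SiC replicate 2.

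A further group was lower in SMARCA1 than in SMARCA4 knockdown without meeting these limits. LINC00957 (chromosome 7, 44039171 to 44042306, plus strand) was at 4.01 and 4.94 CPM in control, 4.23, 6.19, 3.83 and 5.05 in SMARCA4 knockdown and 2.42, 2.64, 2.34 and 2.31 in SMARCA1 knockdown. The SMARCA1 libraries sat close together at 54.2% of control and the SMARCA4 libraries straddled the controls, a log2 difference of 0.99 ± 0.17 (SE, edgeR adjusted p = 0.0018). LINC00957 shares 23.8% of its exon bases with a gene on the opposite strand. LINC01213 (0.80 ± 0.15, adjusted p = 0.0033), LINC01146 (0.80 ± 0.19, 0.0095), LINC02387 (0.71 ± 0.16, 0.007) and LINC01278 (0.48 ± 0.09, 0.0026) had the same order by edgeR, with SMARCA1 levels of 62.1%, 64.7%, 69.2% and 71.4% of control. LINC02593, whose start faces the coding gene SAMD11 across 2907 bases, had a difference of 0.48 ± 0.15 (edgeR adjusted p = 0.03), and its call was lost without any of 4 single libraries. Its knockdown groups overlapped, at 31.9 CPM in the lowest SMARCA4 library against 33.9 in the highest SMARCA1 library, as did those of LINC02387, at 12.7 against 13.4 CPM. Members could also differ because SMARCA4 knockdown was above control. LINC00992 was at 16.9, 18.8, 15.5 and 15.3 CPM in SMARCA4 knockdown against 10.4 and 9.81 in control and 12.8, 11.4, 9.70 and 9.32 in SMARCA1 knockdown (0.63 ± 0.09, edgeR adjusted p = 0.00076). LINC00342 was at 174% of control in SMARCA4 knockdown and 71.7% in SMARCA1 knockdown (1.29 ± 0.21, edgeR adjusted p = 0.0013).

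The mirror pattern, a low level in SMARCA4 knockdown with a level nearer to control in SMARCA1 knockdown, held 5 members (3.85%, where 1.30% of all tested genes met it), namely LINC00665, LINC02672, LINC02245, LINC01114 and LINC01270. Its limits also use the control counts that chose the members, so this share is a description too. Of the 5, 4 were called lower than control in SMARCA4 knockdown and LINC01270 was not, and none was called in SMARCA1 knockdown. The number was 3 without control replicate 1 or without SMARCA4 SiB replicate 2. LINC00665 (chromosome 19, 36259540 to 36331770, minus strand), reported as raised in several cancers, was the most abundant member of all. It was at 155 and 152 CPM in control, 87.1 and 78.0 with SMARCA4 SiA, 66.4 and 54.6 with SMARCA4 SiB, 123 and 124 with SMARCA1 SiA, and 139 and 138 with SMARCA1 SiC. Every SMARCA4 library was below every SMARCA1 library, and every SMARCA1 library below both controls. The means were 46.5% and 85.3% of control, and the difference was -0.89 ± 0.08 (log2, SE, edgeR adjusted p = 0.00011). The nearest coding gene, the zinc finger gene ZFP14 on the same strand, moved the other way, with a difference of 0.81. The start region of LINC00665 (chromosome 19, 36331669 to 36331968, minus strand) is shown as the counterpart of the LINC00662 window on the same chromosome, and with 55.3% GC and 12 CpG it held none of the letters searched.
LINC00665: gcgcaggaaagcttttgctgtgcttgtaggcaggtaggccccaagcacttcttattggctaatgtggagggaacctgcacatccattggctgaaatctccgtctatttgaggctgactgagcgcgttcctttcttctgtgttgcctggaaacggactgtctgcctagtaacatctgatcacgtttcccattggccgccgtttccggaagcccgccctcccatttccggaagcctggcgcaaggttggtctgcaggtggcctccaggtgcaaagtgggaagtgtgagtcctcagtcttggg

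LINC02672 (chromosome 10, 52972612 to 53030024, minus strand) was scarcer. It was at 3.68 and 3.46 CPM in control, 1.68, 1.85, 1.51 and 1.23 in SMARCA4 knockdown and 4.37, 3.70, 3.17 and 3.63 in SMARCA1 knockdown. The SMARCA1 libraries surrounded the controls, and all SMARCA4 libraries lay far below them, at a mean of 43.9% of control (difference -1.25 ± 0.15 SE, edgeR adjusted p = 0.00028). LINC02245 (chromosome 2, 64901840 to 65056168, minus strand) starts 198 bases head to head from CEP68, a centrosome linker gene. LINC02245 had a difference of -1.22 ± 0.29 (edgeR adjusted p = 0.0098) and CEP68 one of -0.43 ± 0.14 (edgeR adjusted p = 0.033), both lower in SMARCA4 knockdown. The SMARCA1 siRNAs put LINC02245 on opposite sides of its controls, which were at 0.711 and 0.632 CPM. It was at 0.976 and 0.853 CPM with SMARCA1 SiA and 0.512 and 0.450 with SMARCA1 SiC, against 0.440 in the highest SMARCA4 library. LINC01114 and LINC01270 had differences of -1.07 ± 0.30 and -1.59 ± 0.45 (edgeR adjusted p = 0.019 and 0.021). LINC01114 lost the call with DESeq2 and without 3 single libraries, and LINC01270 without 3 single libraries, its difference being -2.74 without SMARCA4 SiB replicate 1. LINC01270 reached 0.0351 CPM in SMARCA4 SiB replicate 2, under the floor of 3 counts, and 31.8% of its exon bases are shared with a gene on the opposite strand.

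LINC01687 (chromosome 21, 22008756 to 22098518, minus strand) went to opposite sides of control, although only its rise in SMARCA1 knockdown was called against control. It was at 1.46 and 1.04 CPM in control, 0.873, 0.660, 0.556 and 0.667 in SMARCA4 knockdown, and 2.31, 4.75, 2.59 and 2.52 in SMARCA1 knockdown. All SMARCA4 libraries were below both controls and all SMARCA1 libraries above them, at 55.0% and 243% of control. The SMARCA1 level was 4.42 times the SMARCA4 level (log2 difference -2.13 ± 0.26 SE, edgeR adjusted p = 0.00035), and the nearest coding start, NCAM2, was 1100109 bases away with a difference of 0.35 ± 0.26 (SE). Smaller differences in the same direction were called for LINC01132 (-1.23 ± 0.28, edgeR adjusted p = 0.0079), LINC01852 (-0.83 ± 0.25, 0.025), LINC02846 (-0.77 ± 0.21, 0.016), LINC01106 (-0.53 ± 0.14, 0.016) and LINC01123 (-0.33 ± 0.10, 0.031). The call was lost under 10 of 17 alternatives for LINC01123 (DESeq2 and knockdown libraries only among them), 7 of 16 for LINC01852 (DESeq2 among them) and 3 of 17 each for LINC02846 and LINC01106. LINC01106 and LINC01123 lie 88633 and 88635 bases from the starts of LIMS4 and LIMS3, near-identical coding genes, so reads of this pair may be split or lost between copies and both are uncertain.

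**Figure D3:**
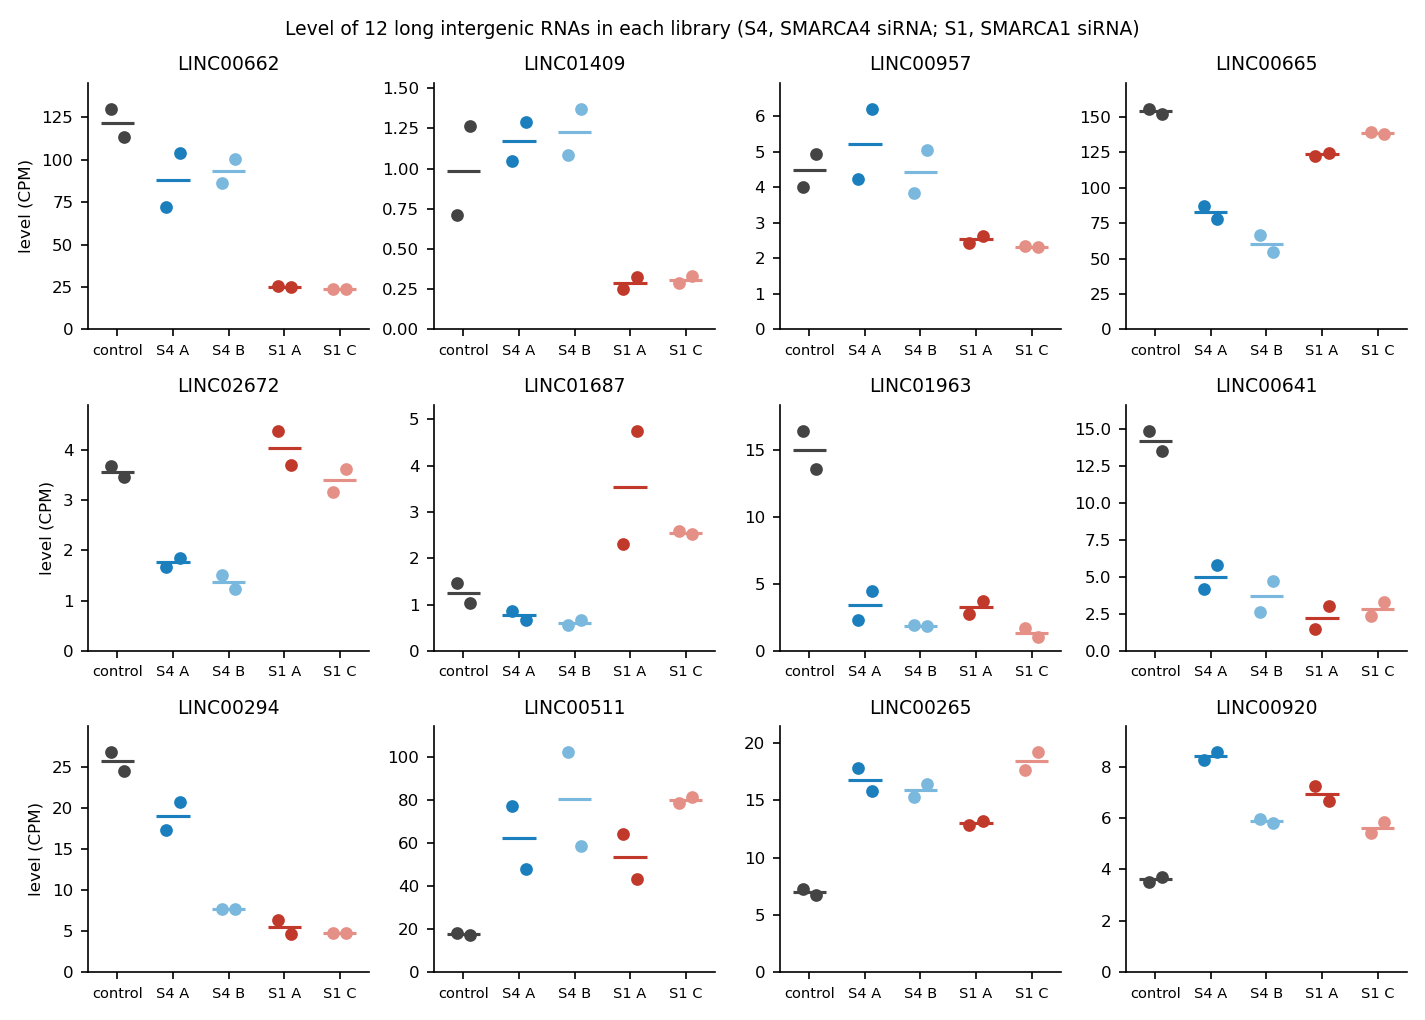
Level in CPM (y axis, each panel from 0) of 12 members in each of the 10 libraries; points are libraries, bars the mean of the 2 libraries of an siRNA, and S4 and S1 stand for SMARCA4 and SMARCA1 siRNAs. LINC00662 and LINC01409 are lowest in the 4 SMARCA1 libraries, LINC00665 and LINC02672 are lowest in the 4 SMARCA4 libraries, LINC01963 and LINC00641 are low in all 8, and LINC00511 is higher in all 8.

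A log2 difference from control of -1 or less in each knockdown was met by 13 of the 130 members, where 3.57% of all tested genes met it. Both comparisons use the same controls, so the count is a description, and 10 of the 13 were called lower in both, 2 (LINC01315 and LINC01224) in SMARCA4 knockdown alone and LINC02466 in neither. Their levels were 17.6 to 53.0% of control in SMARCA4 knockdown and 14.3 to 47.6% in SMARCA1 knockdown, and 3 of the 13 (LINC00294, LINC00641 and LINC01141) were called different between the knockdowns, though LINC01141 lost that call under 11 of 15 alternatives and LINC00641 under 8 of 17. LINC01963 (chromosome 2, 216217045 to 216220192, plus strand), an unspliced transcript, was at 16.4 and 13.5 CPM in control, 2.31, 4.46, 1.92 and 1.86 in SMARCA4 knockdown and 2.75, 3.74, 1.70 and 1.02 in SMARCA1 knockdown. The knockdown libraries overlapped with each other and stood well below both controls, at 17.6% and 15.4%, and the difference between the knockdowns was 0.28 ± 0.24 (SE, edgeR adjusted p = 0.39). LINC00641 (chromosome 14, 21200079 to 21206900, minus strand) was at 14.9 and 13.5 CPM in control, 4.16, 5.82, 2.66 and 4.74 in SMARCA4 knockdown and 1.45, 3.05, 2.37 and 3.33 in SMARCA1 knockdown. Its SMARCA1 mean was lower, at 17.9% of control against 30.6% (0.76 ± 0.26 SE, edgeR adjusted p = 0.041), but the groups overlapped and the edgeR adjusted p rose to 0.16 without SMARCA4 SiB replicate 2 (range 3.1e-05 to 0.16 over all alternatives). LINC01632, LINC02542, LINC02418 and LINC01141 were scarcer, at 1.33, 0.643, 0.848 and 0.588 CPM in control, and their SMARCA1 levels were 23.3%, 39.2%, 38.7% and 14.3% of control. Some of these levels rest on counts near the floor of 3. In the SMARCA1 libraries (SiA, then SiC) LINC01141 had 1, 2, 4 and 3 counts, LINC02542 had 4, 3, 12 and 12, and LINC01632 had 3, 8, 12 and 14. LINC02418 was at 0.58 and 0.49 CPM with SMARCA1 SiA and 0.13 and 0.12 with SiC (SiC minus SiA -2.07 ± 0.50 SE, edgeR adjusted p = 0.14).

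LINC00294 (chromosome 11, 33076149 to 33079454, plus strand) was graded across the siRNAs. It was at 26.7 and 24.5 CPM in control, 17.3 and 20.7 with SMARCA4 SiA, 7.73 and 7.65 with SMARCA4 SiB, 6.33 and 4.63 with SMARCA1 SiA and 4.8 and 4.83 with SMARCA1 SiC. The SMARCA4 SiA libraries were nearest to control and the SMARCA4 SiB libraries approached the SMARCA1 level. SiB was thus lower than SiA (log2 difference -1.31 ± 0.16 SE, edgeR adjusted p = 0.0049), and SMARCA4 knockdown as a whole was higher than SMARCA1 knockdown (1.23 ± 0.12 SE, edgeR adjusted p = 0.00013). The coding gene TCP11L1, which starts 36732 bases away on the same strand, had means of 25.5 CPM in control, 16.9 in SMARCA4 knockdown and 6.4 in SMARCA1 knockdown, a difference of 1.34 ± 0.11 (SE, edgeR adjusted p = 7e-05). This was the member and neighbor pair with both values above 1. LINC00294 is a single exon that overlaps the body of a coding gene and shares 17.4% of its bases with a gene on the opposite strand. Its start region (chromosome 11, 33075900 to 33076199, plus strand) is printed because it is poor in CpG, with 1 CpG and 48.0% GC, where the other windows shown have 12 to 35.
LINC00294: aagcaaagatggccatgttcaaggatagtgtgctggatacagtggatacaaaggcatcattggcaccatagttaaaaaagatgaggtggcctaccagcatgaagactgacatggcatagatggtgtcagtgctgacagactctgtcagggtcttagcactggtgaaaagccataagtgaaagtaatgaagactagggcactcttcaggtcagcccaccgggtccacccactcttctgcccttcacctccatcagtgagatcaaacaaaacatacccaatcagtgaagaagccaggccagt

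Only 3 members (2.31%) differed between the 2 SMARCA4 siRNAs, where 6.20% of all tested genes did. Besides LINC00294 they were LINC02418 and LINC01134. LINC02418 was at 0.140 and 0.157 CPM with SiA and 0.402 and 0.772 with SiB, against 0.878 and 0.817 in control (SiB minus SiA 1.93 ± 0.48 SE, edgeR adjusted p = 0.044). LINC01134 was at 0.768 and 0.880 CPM with SiA, 2.1 and 1.82 with SiB and 2.05 and 2.30 in control (1.25 ± 0.28 SE, edgeR adjusted p = 0.032). For both, SiB libraries were nearer to control than SiA libraries, the reverse of LINC00294. Between the SMARCA1 siRNAs edgeR called 0 members, where 0.0118% of all genes were called, and DESeq2 called 1 member. An unadjusted edgeR p below 0.05 was found for 13 of 130 members and for 2898 of 16899 tested genes, a larger share.

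Higher levels in both knockdowns were fewer. A log2 of 1 or more in each was found for 5 members, of which 4 were called higher in both and LINC00847 in neither, and for 1415 of all tested genes (8.37%). LINC00511 (chromosome 17, 72290091 to 72640472, minus strand), described as an oncogenic RNA in many tumor types, was at 18.2 and 17.4 CPM in control, 77.2, 47.9, 102 and 58.9 in SMARCA4 knockdown and 64.2, 43.5, 79.0 and 81.5 in SMARCA1 knockdown. All 8 knockdown libraries were well above both controls, with the SMARCA1 SiC pair close together and the other pairs spread widely, and the means were 402% and 377% of control. The knockdowns overlapped, and their difference was 0.11 ± 0.20 (SE, edgeR adjusted p = 0.69). LINC00265 (7.28 and 6.76 CPM in control) was at 15.3 to 17.8 CPM in SMARCA4 knockdown and 12.9 to 19.2 in SMARCA1 knockdown, a difference of 0.08 ± 0.09 (SE, edgeR adjusted p = 0.53). LINC00847, from 0.544 and 0.557 CPM in control, averaged 1.24 ± 0.61 (SD, n = 4) and 1.19 ± 0.43 (SD, n = 4), but 41.7% of its exon bases are shared with a gene on the opposite strand. The start region of LINC00511 (chromosome 17, 72640423 to 72640722, minus strand) is printed as the one of the strongest rise, the richest in GC of those shown, at 78.0% with 35 CpG, and it held no match to the interferon-type GAAANNGAA or to the other letters searched.
LINC00511: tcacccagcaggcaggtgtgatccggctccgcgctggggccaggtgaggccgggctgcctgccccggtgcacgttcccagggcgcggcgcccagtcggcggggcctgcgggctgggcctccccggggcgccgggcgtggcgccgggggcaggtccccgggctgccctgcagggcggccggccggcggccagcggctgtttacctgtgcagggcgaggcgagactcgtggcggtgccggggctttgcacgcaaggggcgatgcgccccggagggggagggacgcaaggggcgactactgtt

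Members with a described role in prostate or other cancers did not move as a group. LINC00920, described as activated by the ETS factor ERG that VCaP expresses from a gene fusion, was at 3.51 and 3.71 CPM in control, 8.24, 8.55, 5.96 and 5.79 in SMARCA4 knockdown and 7.23, 6.66, 5.41 and 5.84 in SMARCA1 knockdown. Every knockdown library was above both controls, and the SMARCA4 and SMARCA1 groups overlapped (0.17 ± 0.10 SE, edgeR adjusted p = 0.22). LINC00963, described in the passage of prostate cancer to androgen independence, was at 43.1 CPM in control, 45.3 ± 1.4 (SD, n = 4) in SMARCA4 knockdown and 51.5 ± 5.8 (SD, n = 4) in SMARCA1 knockdown (-0.19 ± 0.10 SE, edgeR adjusted p = 0.16). LINC01138, 20.8% of whose exon bases are shared with a gene on the opposite strand, was at 146% and 96.7% of control (0.56 ± 0.18 SE, edgeR adjusted p = 0.036), but its knockdown groups overlapped and the call was lost under 7 of 17 alternatives. LINC00467 was at 97.1% and 73.4% (0.39 ± 0.22 SE, edgeR adjusted p = 0.18), and its difference was 0.12 without SMARCA4 SiB replicate 1. Among other well-known long noncoding RNAs outside the LINC series, 29 of 41 listed were tested, of which 3 were higher and 6 lower in SMARCA4 than in SMARCA1 knockdown. The shares of all tested genes were 16.3% higher and 19.1% lower, and nothing is read from these few calls.

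Position in the genome was not used to choose the members. They lie on 23 chromosomes, 23 of them on chromosome 1, with a median exon length of 4100 bases in a median of 6 exon blocks, and 17 are a single block. GENCODE v44 matched 121 members by symbol and place, 114 as lncRNA and 7 with a pseudogene type, LINC00674 among the latter. Despite the name, 19 bodies overlap a coding gene, 44 members share at least 1 exon base with a gene on the opposite strand (20 of them 10% or more) and 5 share 10% or more on the same strand. The median distance from start to nearest coding start was 53985 bases, and 68 starts were over 50000 bases away. Among the 101 members with a tested coding neighbor, 57 had the same sign of difference between the knockdowns as that neighbor (Pearson r = 0.085, Spearman rho = 0.10 across genes, which share libraries and are not independent). Of the 25 called members with a tested neighbor, 10 had a called neighbor, where 35.4% of all genes were called, and 6 of these moved in its direction. Where member and neighbor start head to head within 1000 bases, 10 of 12 pairs had the same sign, given as a description of few pairs. LINC02245 with CEP68 and LINC01089 with SETD1B (0.83 and 0.33) are such pairs of the same sign. So are LINC01137 and ZC3H12A, 169 bases apart, at 0.54 ± 0.19 and 0.05 ± 0.11 (SE). LINC01137 lost its call under 10 of 17 alternatives. The pairs of opposite sign were LINC01770 with VWA1 and LINC02495 with JAKMIP1. LINC01770 and VWA1 had 0.741 and -0.421 (edgeR adjusted p = 0.013 and 0.015). LINC02495 and JAKMIP1 had -0.125 and 1.994 (edgeR adjusted p = 0.57 and 0.035). The 16 windows of members called higher in SMARCA4 knockdown, the 11 of those called lower and the 65 of those not called had median GC contents of 56.8%, 59.3% and 57.3%, with 58.3% over all windows, and observed over expected CpG of 0.338, 0.441 and 0.592.

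**Figure D4:**
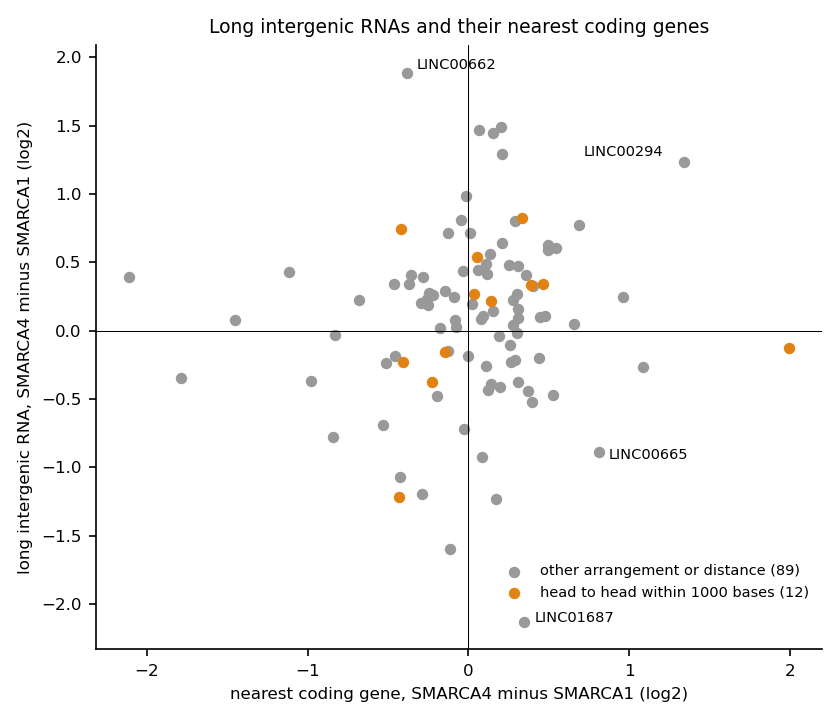
Log2 difference between SMARCA4 and SMARCA1 knockdown of the nearest coding gene (x axis) and of the member (y axis) for the 101 members with a tested neighbor; the 12 orange points start head to head within 1000 bases. LINC00294 and TCP11L1 stand together at upper right, LINC00665 and LINC00662 have opposite signs to their neighbors, and 10 of the 12 orange points fall in a quadrant of equal sign.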

How the data were processed

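VCaP RNA-seq libraries were aligned by the authors to hg38 with HISAT2 2.1.0 and counted with featureCounts 1.5.2, per the submitters' processing notes, and raw counts per gene were deposited without normalization, together with the exon length and coordinates of each gene. How reads with several alignments were counted is not given in the sources used here. From these counts, 16899 genes passed filterByExpr (minimum count 10, minimum total 15), were scaled by TMM and were fitted over 5 groups with edgeR 4.0.16 (R 4.3.3) by its quasi-likelihood test with Benjamini-Hochberg adjustment at 0.05. A knockdown is the mean of its 2 siRNAs, and CPM are counts per 1000000 of TMM-scaled totals. SE is the log2 difference divided by the root of F.

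The members and lists were chosen with earlier results of these data known. Genes were named by these rules: LINC01409; the 12 largest called differences in each direction with a mean of at least 0.3 CPM and no overlap of the 4 SMARCA4 and 4 SMARCA1 libraries; the 6 highest per kb in control; the members of both single-knockdown patterns and the 6 lowest in both; listed RNAs with a known role; and the 3 largest shared rises. Others were named after their values were seen, namely LINC01128, LINC00115, LINC01134, LINC01315, LINC01224, LINC02466, LINC01770 and LINC02495. A member of the Y chromosome was counted but not named, and 3 marker genes of the lists are not reported here. Differences from control are descriptive, since control counts chose the members. Promoter windows are RefSeq, GRCh38.p14, matched by symbol for 92 members. The test was checked on simulated data. Totals give a floor of 3 counts, 0.0899 to 0.126 CPM, which covers counting error only. Alternatives were DESeq2 1.42.0, RLE scaling, library totals only, no filter or 1 CPM in 2 libraries, a replicate block, knockdown libraries only, single siRNAs, looser limits, 50 control counts and leaving out each library.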

Additional observations from a re-analysis of the deposited data

Results flagged for a closer look

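In groups of 4 libraries, 1 library lay far from the other 3 for 7 named members, where chance gives about 1 in 20 groups. Each of the 41 named members has both a SMARCA4 and a SMARCA1 group, so several such groups can arise by chance. The number is not read as an excess. Among the SMARCA1 libraries these were LINC00294 at 6.33 CPM and LINC02846 at 2.39 CPM in SiA replicate 1, and LINC01687 at 4.75 CPM and LINC00674 at 5.53 CPM in SiA replicate 2. The SMARCA4 libraries gave LINC01963 at 4.46 CPM in SiA replicate 2, LINC00467 at 3.28 CPM in SiB replicate 1 and LINC01137 at 5.51 CPM in SiB replicate 2. For LINC01687 the high library did not set the direction, as the other SMARCA1 libraries, at 2.31, 2.59 and 2.52 CPM, were also above every SMARCA4 library.

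The 2 SMARCA4 siRNAs differed from each other, by edgeR's quasi-likelihood test of SiB minus SiA, for LINC00294 (log2 -1.31, adjusted p = 0.0049), LINC01134 (1.25, adjusted p = 0.032) and LINC02418 (1.93, adjusted p = 0.044), each with both SiB libraries on 1 side of both SiA libraries.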

How the results depend on the processing

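LINC01409 kept its difference between the knockdowns under every alternative run (1.91 to 2.09 when 1 library was left out). The 36 calls between the knockdowns became 39 with a replicate block, 32 with DESeq2 and 21 to 44 with 1 library left out. Among the 46 members with 50 control counts in each control, calls between the knockdowns numbered 22, calls against control 19 (SMARCA4) and 25 (SMARCA1), and the patterns lower in SMARCA1 only, SMARCA4 only and both held 2, 2 and 4. Leaving out 1 library gave 18 to 45 calls for SMARCA4 and 24 to 56 for SMARCA1 against control, the latter 34 and 35 without SMARCA1 SiC replicate 1 and 2, and 2 to 7, 3 to 7 and 11 to 16 for the patterns. At 1 CPM in 2 libraries the SMARCA4 pattern held 2 and the shared pattern 6, and with a fall of 0.6 in place of 1 they held 8 and 28. These alternatives test fewer genes or samples or change the limits by construction. The 3 calls between SMARCA4 siRNAs became 5 with library totals only, 5 with the replicate block, 11 with no filter, 1 with knockdown libraries only and 1 at 50 control counts. They were 0 without SMARCA4 SiA replicate 2, 9 without either SMARCA1 SiA library, and 1 without either control, either SMARCA4 SiB library or either SMARCA1 SiC library; the cause was not tested. The 0 calls between SMARCA1 siRNAs became 1 with DESeq2, 4 with no filter and 0 to 1 with 1 library left out. With the replicate block the pattern lower in SMARCA1 only held 5. The replicate numbers were not taken to pair the libraries, since correlations of same-numbered deviations ran from -0.103 to 0.362; those among SMARCA4 SiA, SMARCA4 SiB and SMARCA1 SiA were 0.125 to 0.362, a hint from the data alone.

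Of 669 alternative values for the 40 other named members, 576 kept direction and call, 80 lost the call, 3 gained it and 10 reversed, all 10 for members with no called difference and with 1 library left out: LINC00847 (-0.275 to 0.306), LINC02542 (-0.38 to 0.421), LINC00511 (-0.097 to 0.287) and LINC02418 (-0.07 to 0.411). Of the 29 called members among the 40, 15 kept the call under every alternative. The median SE of the members was 0.23, against 0.13 for all genes.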
